A study of Rattus norvegicus with 24 samples.

Results

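ENSRNOT00000004408 and ENSRNOT00000026303 are 2 of the 22938 rat transcripts counted in brain and liver of young and old animals, and both stood higher in old than in young liver. They were chosen from these data: ENSRNOT00000004408 had been called higher in old liver by RNA-seq, and ENSRNOT00000026303 by ribosome profiling. The liver age contrast is therefore described here without a test. Both identifiers were present in all 24 count files and had counts in each of them. The study measured 4 kinds of library in 3 young rats (6 months) and 3 old rats (24 months of age): brain RNA-seq, brain ribosome profiling, liver RNA-seq and liver ribosome profiling, which gives 8 groups of 3 libraries. Sample titles carry one animal code over the 4 kinds of library, so young animal 1 is the same rat in brain and liver. The groups differ in age, organ and assay. The labels name no genetic change or treatment for any of them, and their strain and sex are not stated there.

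RNA-seq reads the abundance of a transcript in total RNA. Ribosome profiling digests unprotected RNA with a nuclease and sequences the short pieces covered by ribosomes, called footprints, so it reads how much of a transcript is engaged with ribosomes. The ratio of footprints to RNA is commonly called translational efficiency. It compares one transcript with the average of its library and gives no absolute rate of protein synthesis. Levels below are CPM, counts per 1000000 of the library total, and errors are SD over the 3 animals of a group. Brain and liver are mixtures of cell types, and in such bulk samples fewer cells of a type and less RNA per cell cannot be told apart.

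The files give identifiers alone. Of the identifiers, 0 matched the RefSeq gene table of assembly GRCr8, so the genes, their functions, their genome positions and their sequences are not given, and the organ labels could not be checked against named marker genes. Each file also lists an undefined value that behaves like a length, which was 139 for ENSRNOT00000004408 and 517 for ENSRNOT00000026303. Because its meaning is not known, levels of one transcript are not set against levels of the other. No other transcript had the same counts as either one in every library. Libraries held 14281043 to 28664906 counts in RNA-seq and 5259326 to 17584871 in ribosome profiling. The brain libraries of old animal 2 stood apart: 50 liver-enriched transcripts reached 4.42% of their level in the liver of the same animal in RNA-seq and 6.07% in ribosome profiling, against 0.489% to 0.71% and 0.513% to 0.996% in the other animals. Nothing in the labels says how the tissues were dissected.

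ENSRNOT00000004408 stood at a low level in young liver and several times higher in old liver, in RNA and in footprints alike. In young liver RNA-seq it stood at 1.56, 1.85 and 2.23 CPM in animals 1, 2 and 3, from 33, 34 and 40 counts. In old liver the 3 animals had 11.3, 7.15 and 11.5 CPM, from 323, 182 and 297 counts. Old animal 2 was the lowest of the old group and still lay 3.21 times above the highest young animal. The group means were 1.88 ± 0.336 and 9.97 ± 2.45 CPM (SD, n = 3), a ratio of 5.31, and edgeR gave a log2 fold change of 2.51 (SE 0.21).

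Footprints of ENSRNOT00000004408 in liver showed the same order of groups. Young animals had 2.11, 1.19 and 1.42 CPM, from as few as 18 counts. Old animals had 10.6, 5.46 and 9.44 CPM, again with old animal 2 the lowest. Every old value exceeded every young one by at least 2.58 times, and the means were 1.57 ± 0.481 and 8.48 ± 2.68 CPM (SD, n = 3; log2 fold change 2.33, SE 0.333). The 95% exact Poisson interval of the highest young library ran from 1.37 to 3.12 CPM and that of the lowest old library from 4.25 to 6.91 CPM. Such intervals cover the counting error of a single library only and leave out differences between animals. PCR reads without molecular identifiers are not independent molecules, so the intervals may also be too narrow.

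ENSRNOT00000026303 was also higher in every old liver, with a larger ratio of old to young in footprints than in RNA; the difference between these ratios was not tested. Liver RNA-seq gave 1.47, 4.08 and 5.35 CPM in young animals 1, 2 and 3. Old animals 1, 2 and 3 had 16.5, 18.6 and 19.9 CPM, a narrow band in which the highest value was 1.2 times the lowest. Young animals spread over 3.65 times, from 31 to 96 counts, with animal 1 the lowest. The means were 3.63 ± 1.98 and 18.3 ± 1.7 CPM (SD, n = 3), a ratio of 5.05 (log2 fold change 2.47, SE 0.36).

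In liver ribosome profiling ENSRNOT00000026303 had 1.27, 1.98 and 2.84 CPM in young animals, from 15, 30 and 50 counts. The old animals had 26.3, 18.1 and 31.0 CPM, from 281, 229 and 476 counts. The lowest old value was 6.37 times the highest young one. Means of 2.03 ± 0.79 and 25.1 ± 6.51 CPM (SD, n = 3) gave a ratio of 12.4 and a log2 fold change of 3.48 (SE 0.284). In young liver the transcript lay above 20.6% to 31.9% of the transcripts detected in a footprint library, and in old liver above 68.6% to 78.2%.

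Both transcripts thus had every old liver library above every young one in both assays. Over all transcripts tested, 7.51% showed this in liver RNA-seq and 13.5% in liver ribosome profiling, and edgeR called 0.0164% and 0.0176% higher at an adjusted p under 0.05. These shares are background only, because the same contrast chose the 2 transcripts. By size of the fold change ENSRNOT00000004408 ranked 58th of 12198 transcripts in RNA-seq and 56th of 11396 in footprints. ENSRNOT00000026303 ranked 64th and 13th.

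**Figure D1:**
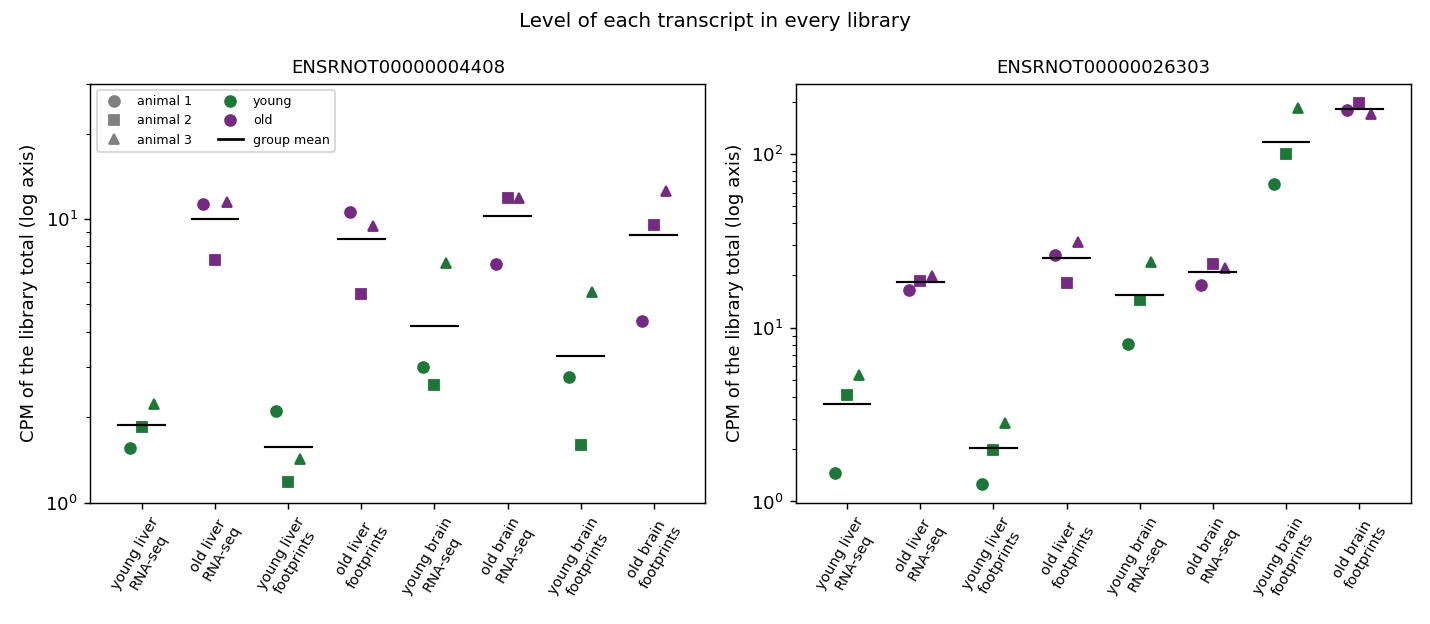
CPM of the library total (log axis) of each transcript in all 24 libraries, by group; symbols mark the animal, colours the age and black bars the group mean. In liver every old point lies above every young point for both transcripts, while in brain the ages overlap; ENSRNOT00000026303 stands highest in brain footprints, at 66.8 to 198 CPM.

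Transcripts of similar length-like value were set beside each member. In liver RNA-seq, transcripts with a length-like value within 20% of that of ENSRNOT00000004408 had a median log2 fold change of 0.12 over 888 transcripts, against 0.01 over all tested. Less that median, the value of ENSRNOT00000004408 was 2.38, and it ranked 8th among transcripts of similar length-like value. For ENSRNOT00000026303 the corresponding median was -0.02 in RNA-seq and 0.01 in footprints, and its footprint value less that median was 3.48. This comparison was added after the data had been seen.

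Brain was the organ whose age contrast had no part in the choice, so it was tested. Its libraries came from the same rats as the liver libraries. A difference shared by the organs of a rat would enter both, so the test is not independent of the choice. Neither transcript passed the edgeR test for an age effect in brain, in either assay. ENSRNOT00000004408 had 3.01, 2.59 and 6.99 CPM in young brain RNA-seq and 6.95, 11.9 and 11.9 CPM in old brain. The groups met at one point, since young animal 3 lay level with old animal 1. Every old library lay above every young one for 10.9% of all transcripts in brain RNA-seq and 9.17% in brain footprints, and for neither member. The means were 4.2 ± 2.43 and 10.2 ± 2.85 CPM (SD, n = 3), a ratio of 2.44. In edgeR's quasi-likelihood test the log2 fold change was 1.27 (SE 0.448, adjusted p = 0.301), and of all 13986 transcripts tested 0.315% were called higher.

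Brain footprints of ENSRNOT00000004408 were 2.78, 1.59 and 5.52 CPM in young and 4.37, 9.54 and 12.5 CPM in old animals. Old animal 1 again fell within the young range, and the young minimum rested on 9 counts. The means were 3.3 ± 2.02 and 8.81 ± 4.12 CPM (SD, n = 3; log2 fold change 1.41, SE 0.433, edgeR adjusted p = 0.114). Among 13570 transcripts tested in brain footprints, 0.789% were called higher. DESeq2 gave an adjusted p of 0.00522 in RNA-seq, which passes the threshold, and 0.0768 in footprints. So the call in brain RNA-seq depends on the tool, while the log2 fold change was 1.28 by DESeq2 and 1.27 by edgeR. A DESeq2 call was also more common there, with 299 transcripts called in either direction against 66 by edgeR.

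ENSRNOT00000026303 was present in brain at both ages. Brain RNA-seq gave 8.04, 14.4 and 23.8 CPM in young animals and 17.6, 23.2 and 22.1 CPM in old ones. The highest value of all 6 belonged to young animal 3. Means of 15.4 ± 7.95 and 20.9 ± 2.95 CPM (SD, n = 3) gave a log2 fold change of 0.43 (SE 0.426, edgeR adjusted p = 0.72).

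Its brain footprints were 66.8, 99.8 and 184 CPM in young and 180, 198 and 169 CPM in old animals. Here too young animal 3 lay inside the old range, and the other 2 young animals lay below it. The means were 117 ± 60.2 and 182 ± 14.4 CPM (SD, n = 3; log2 fold change 0.66, SE 0.428, edgeR adjusted p = 0.597). Without young animal 3, which had the highest young value, the log2 fold change was 1.15 and passed the threshold (edgeR adjusted p = 0.0348). So the call in brain footprints depends on that animal. The refit without it called 47 transcripts in either direction, against 232 with all animals. Leaving out any other animal gave no call (edgeR adjusted p from 0.708 to 0.805). Without young animal 1, which had the lowest young value, the log2 fold change fell to 0.37. In brain RNA-seq the omission of young animal 3 gave 0.89 and no call (edgeR adjusted p = 0.42), and that of young animal 1 gave 0.13. For the 2 transcripts together, edgeR called 0 of 2 in each brain assay. At an unadjusted p under 0.05 there was 1 of 2 in each assay, ENSRNOT00000004408 both times, a level that 14.0% of all transcripts reached in RNA-seq and 14.1% in footprints.

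The part of the liver-enriched transcripts in the brain values of old animal 2 was not tested. Taking 4.42% and 6.07% of the liver level of that animal gave 0.316 CPM in RNA-seq and 0.331 CPM in footprints for ENSRNOT00000004408. The measured brain values were 11.9 and 9.54 CPM. For ENSRNOT00000026303 the same shares gave 0.821 and 1.1 CPM, against measured brain values of 23.2 and 198 CPM. Without old animal 2 the log2 fold changes of ENSRNOT00000004408 in brain were 1.14 in RNA-seq and 1.33 in footprints (edgeR adjusted p = 0.489 and 0.193).

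**Figure D2:**
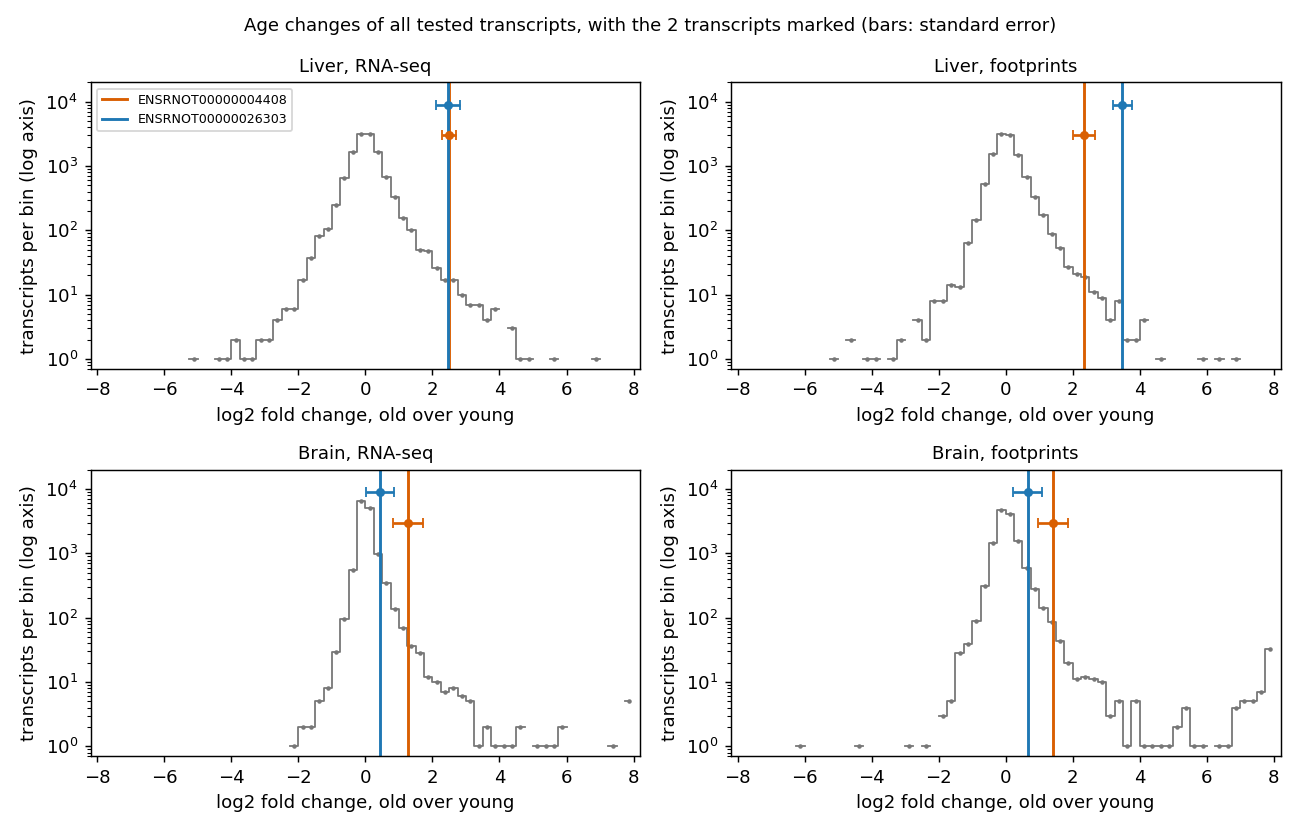
Number of tested transcripts per bin of log2 fold change, old over young (counts on a log axis; values beyond 8 are in the end bins), for each organ and assay; coloured lines mark the 2 transcripts, with points and bars for their standard error. In liver both lie far in the right tail, at 2.33 to 3.48, and in brain they lie at 0.43 to 1.41.

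Young animal 1 had the lowest and young animal 3 the highest value of ENSRNOT00000026303 in all 4 kinds of library. The highest young value was 2.96 times the lowest in brain RNA-seq, 2.75 times in brain footprints, 3.65 times in liver RNA-seq and 2.24 times in liver footprints. In brain RNA-seq its SD of log2(CPM + 0.5) over the 3 young animals was 0.756, against a median of 0.095 over 13438 transcripts with a mean of at least 1 CPM, which placed it 57th from the top. ENSRNOT00000004408, at 0.691, was 79th. In young liver its SD was nearer the ordinary, at 0.203 against a median of 0.184 in RNA-seq and 0.324 against 0.213 in footprints.

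Among old animals the highest value of ENSRNOT00000026303 was 1.17 times the lowest in brain footprints, 1.32 times in brain RNA-seq, 1.2 times in liver RNA-seq and 1.71 times in liver footprints. The SD of its log2(CPM + 0.5) in old animals exceeded that of 27.8% and 85.3% of transcripts in brain footprints and RNA-seq, and of 70.6% and 21.1% in the corresponding liver libraries. No one old animal was lowest in all 4 kinds of library. ENSRNOT00000004408 was less regular: in brain young animal 2 was lowest and young animal 3 highest in both assays, and in liver the order differed between the assays.

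Footprints were then set against RNA in each animal. ENSRNOT00000004408 had footprint to RNA ratios close to those of a typical transcript in both organs. In young brain the ratio was 0.925, 0.615 and 0.79 in animals 1, 2 and 3, and in old brain 0.629, 0.804 and 1.05. In young liver it was 1.35, 0.642 and 0.637 and in old liver 0.937, 0.763 and 0.821. The ranges overlapped in all comparisons of age and organ. The median of all transcripts, taken from group means with at least 1 CPM in both assays, was 0.938 in young brain and 0.795 in young liver.

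ENSRNOT00000026303 had several times more footprints than RNA in brain, on the CPM scale, and ratios nearer to 1 in liver. Its brain ratio was 8.31, 6.94 and 7.7 in young animals and 10.2, 8.53 and 7.66 in old animals. By the ratio of group means it ranked 61st of 12904 transcripts in young brain and 49th of 13246 in old brain. In liver the ratio was 0.864, 0.485 and 0.531 in young animals and 1.59, 0.974 and 1.56 in old animals. From group means it lay above 32.5% of transcripts in young liver and above 81.1% in old liver. The brain values of all 6 animals lay above all liver values.

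The footprint to RNA ratio in brain was tested over its 12 libraries. ENSRNOT00000026303 held 3.14 log2 units more of the footprints than of the RNA counts (SE 0.313, edgeR quasi-likelihood test of the assay term, adjusted p = 7.41e-06), with 6 of 6 animals in that direction. The test called 37.3% of 14664 transcripts higher in footprints, so a call alone is common. ENSRNOT00000004408 had a log2 value of -0.13 (SE 0.326, edgeR adjusted p = 0.729).

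Age did not change the brain ratio detectably for either transcript. The log2 change in the ratio with age was 0.17 (SE 0.687) for ENSRNOT00000004408 and 0.25 (SE 0.621) for ENSRNOT00000026303. Adjusted p-values of edgeR's interaction test of age and assay were 0.998 and 0.991. The test called 0.0818% of transcripts in either direction, and of these 2 it called 0. Taken unadjusted, p was under 0.05 for 0 of them, against 7.10% of all transcripts. DESeq2 called 0, which gave no adjusted p for ENSRNOT00000004408. These standard errors come from the fit without the animal block, so differences in level between animals enter them. A change of 2-fold lies within 2 of them, so it was not detectable in that fit. With the animal as a block, the log2 changes were 0.12 for ENSRNOT00000004408 and 0.24 for ENSRNOT00000026303 (edgeR interaction test, adjusted p = 0.979 and 0.661).

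In liver the ratio of ENSRNOT00000026303 was 0.627 ± 0.207 in young and 1.37 ± 0.345 in old animals (SD, n = 3). All 3 old ratios lay above all 3 young ones by library totals, the closest pair being 0.974 in old animal 2 and 0.864 in young animal 1. How many of all transcripts show such a separation of their liver ratios was not counted. Under TMM scaling, which sets libraries against each other by the bulk of their transcripts, the lowest old ratio was 1.07 and the highest young one 1.072, so the groups then met. The median ratio over all transcripts was 0.795 in young and 0.892 in old liver. For ENSRNOT00000004408 the liver ratio was 0.877 ± 0.411 and 0.84 ± 0.0887. These liver values come from the contrast that chose the transcripts and carry no test.

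**Figure D3:**
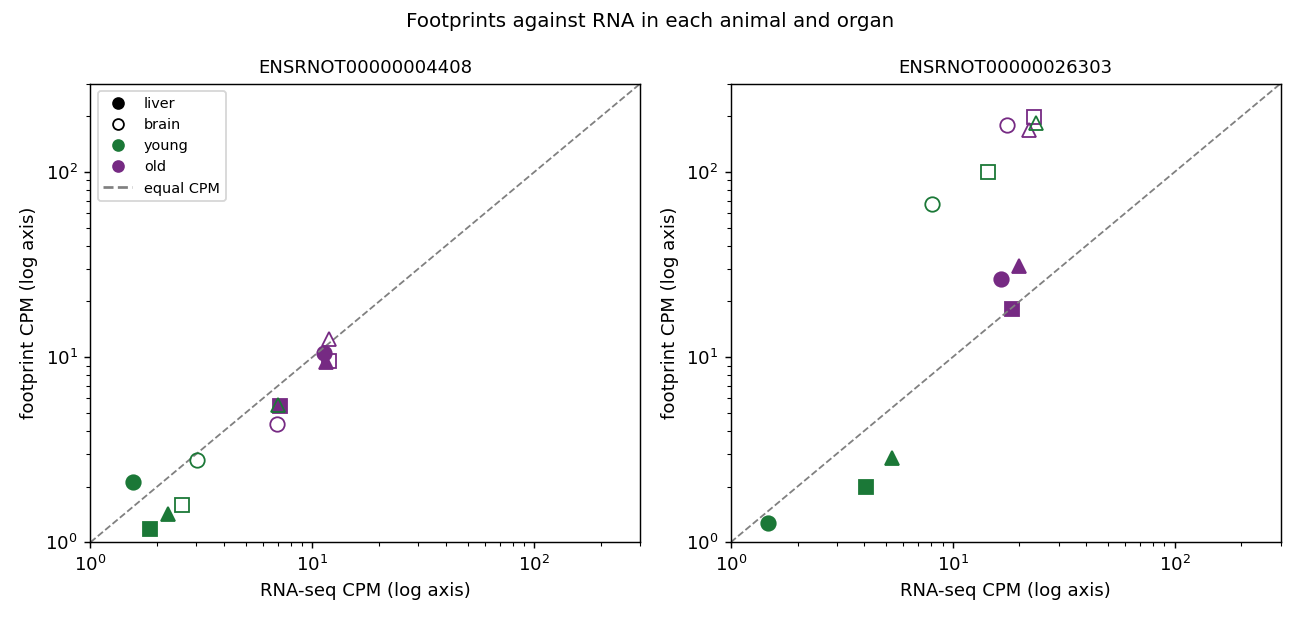
Footprint CPM against RNA-seq CPM (both log axes) in each animal, filled for liver and open for brain; the dashed line marks equal CPM. ENSRNOT00000004408 lies near the line in both organs, whereas the brain points of ENSRNOT00000026303 lie 6.94 to 10.2 times above it and its liver points lie at 0.485 to 1.59 times.

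Set organ against organ, the ratio of ENSRNOT00000026303 was higher in brain than in liver by 9.62, 14.3 and 14.5 times in young animals 1, 2 and 3. In old animals the factor was 6.45, 8.75 and 4.92. The 3 old factors were all below the 3 young ones by library totals. How many of all transcripts show such a separation was not counted, and the factors were not computed under TMM. From group means, ENSRNOT00000026303 ranked 2nd of 9722 transcripts in young animals and 7th of 10261 in old animals. The medians over all transcripts were 1.22 in young and 1.06 in old animals, so the typical factor was also lower in old animals. For ENSRNOT00000004408 the factors ran from 0.684 to 1.24 in young and from 0.671 to 1.28 in old animals. The organ comparison includes the liver libraries that chose the transcripts, so it is given as values with no test.

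**Figure D4:**
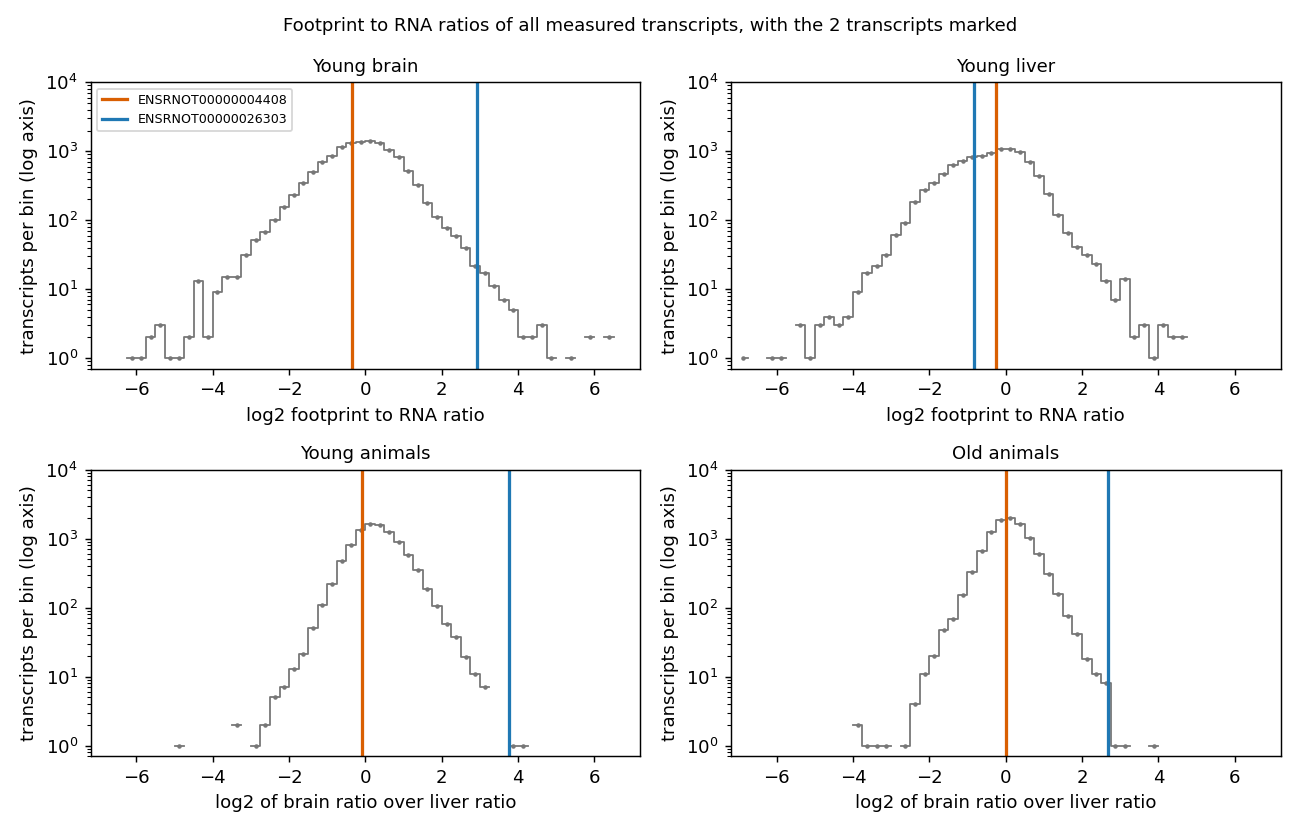
Number of transcripts per bin (log axis) of the log2 footprint to RNA ratio in young brain and young liver, and of the log2 of the brain ratio over the liver ratio in young and old animals, with the 2 transcripts marked. ENSRNOT00000026303 lies in the right tail in brain (ratio 7.57) and below the median in young liver (0.559), and ENSRNOT00000004408 lies between 0.786 and 1.01 in the 4 panels, above 25.5% to 53% of transcripts.

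The levels of the 4 groups of an assay can be put in order on the CPM scale. In RNA-seq ENSRNOT00000004408 went from young liver through young brain to old liver and old brain, and the last 2, at 9.97 and 10.2 CPM, overlapped, as did the brain groups of both ages. In footprints its groups had the same order, and each overlapped its neighbour. For ENSRNOT00000026303 the RNA-seq order was the same, with young liver apart from the rest at 3.63 CPM and the other groups overlapping. Its footprint order was different: young liver, old liver, young brain and old brain, with the first 3 apart from each other and the 2 brain groups overlapping.

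That order of the organs depends on the scaling. In old animals the liver RNA level of ENSRNOT00000026303 was 0.802 to 0.939 times its brain level by library totals. With TMM factors over all 24 libraries old liver stood at 27.3 ± 2.36 and old brain at 12.8 ± 1.95 CPM (SD, n = 3), so the direction turned. ENSRNOT00000004408 then stood at 14.7 ± 3.1 CPM in old liver and 6.25 ± 1.77 CPM in old brain RNA-seq. The footprint levels of ENSRNOT00000026303 stayed higher in brain under TMM, at 120 ± 16 CPM in old brain and 42.0 ± 8.6 CPM in old liver. Under TMM, however, its old liver footprints, at 32.1 to 47.4 CPM, overlapped those of young brain, at 43.7 to 119 CPM.

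Footprints of ENSRNOT00000026303 were lower in liver than in brain of the same animal at both ages. By library totals they were 0.019, 0.0198 and 0.0155 times the brain level in young animals 1, 2 and 3. In old animals they were 0.146, 0.0916 and 0.183 times. Under TMM the liver and brain means were closer, at 3.78 and 74.7 CPM in young animals and 42.0 and 120 CPM in old ones. Its RNA in liver, by contrast, was 0.182, 0.284 and 0.225 times the brain level in young and 0.939, 0.802 and 0.902 times in old animals. Per library total, old liver thus held nearly as much of its RNA as brain (more than brain under TMM) and, under both scalings, fewer of its footprints.

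The transcripts most like each member were sought over the 8 groups. Likeness was the root mean square difference of the 8 group means of log2(CPM + 0.5), each centred on its own average, over 13851 candidates. Closest to ENSRNOT00000004408 were ENSRNOT00000067780, at 0.462, and ENSRNOT00000005085, at 0.482, against a median of 1.27. ENSRNOT00000067780 had 8.71 ± 2.3 and 33.4 ± 6.98 CPM in young and old liver RNA-seq and 25.1 ± 13.7 and 54.1 ± 9.36 CPM in brain (SD, n = 3). ENSRNOT00000005085 was a trace transcript, with 0.46 ± 0.209 and 4.35 ± 3.14 CPM in young and old liver RNA-seq.

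ENSRNOT00000026303 had no transcript as close. The nearest were ENSRNOT00000020528, at 0.767, and ENSRNOT00000010238, at 0.882, against a median of 1.85. ENSRNOT00000020528 also had more footprints than RNA in brain, with 35.6 ± 10.3 against 9.28 ± 3.24 CPM in young animals (SD, n = 3). ENSRNOT00000010238 went from 0.207 ± 0.266 to 17.9 ± 7.29 CPM in liver footprints and stood at 53.3 ± 2.91 and 45.9 ± 3.34 CPM in brain footprints of young and old animals. The 2 members were not close to each other, at 1.65. With 8 points from the same animals these distances describe the profiles and carry no test.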

How the data were processed

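The authors deposited whole-number counts per transcript, not normalised, for 24 libraries, beside an undefined length-like value (unit other). RNA-seq libraries came from total RNA with a stranded kit and footprint libraries from RNase I digestion of pelleted ribosomes, per the labels' protocols. Build rn4 and the tools DESeq, TopHat2 2.0.10 and Bowtie 1.0.0.0 are listed, per the submitters' processing notes, with no role. The sources used here do not state the annotation, the counting rule or how multiply mapping reads were handled, so reads shared with similar transcripts cannot be told apart.

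The members, tests and lists were chosen with earlier results of these data known. Each fit ran over all transcripts passing edgeR's filter (minimum count 10, minimum total 15) in R 4.3.3, using the robust quasi-likelihood F test of edgeR 4.0.16 (TMM, two-sided, Benjamini-Hochberg, threshold 0.05). The fit was also run on simulated counts, as a check of the code only. These had one setting of spread between libraries for all transcripts and no effect shared by the libraries of one animal. Standard errors derive from the F statistic. Levels are CPM of the library total; liver-enriched transcripts were the 50 most abundant in young liver RNA-seq with at least 16 times the young brain CPM plus 0.5. Transcripts named beside the members were the 2 most alike per member, among those averaging at least 1 CPM. Alternatives were DESeq2 1.42.0, median-ratio factors, library totals, no filter, each animal left out and the animal as a block. Titles give the animal, and deviations from group means correlated between the assays of one animal at 0.185 to 0.821 in brain and 0.46 to 0.789 in liver. Correlations between different animals, or between brain and liver, were not computed, so these values do not check the animal code.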

Additional observations from a re-analysis of the deposited data

How the results depend on the processing

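With the animal as a replicate block, the brain footprint to RNA value of ENSRNOT00000026303 was 3.15 and its age change 0.24, those of ENSRNOT00000004408 were -0.18 and 0.12, and no call of the 2 transcripts changed, while the count of transcripts with a changed brain ratio went from 12 to 31. That count was 4 with median-ratio factors, 0 with library totals (edgeR) and 61 by DESeq2. DESeq2 also moved the brain age counts (RNA-seq from 66 to 299, footprints from 232 to 383), and called ENSRNOT00000004408 in brain RNA-seq at 1.28. The liver counts of 2 in each assay became 18 and 14 with library totals, 143 and 53 without a count filter, and 1083 and 221 by DESeq2. The causes were not tested.

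Leaving out each animal gave 1 to 1128 calls for brain RNA, 33 to 321 for brain footprints, 0 to 6 for the brain ratio, 0 to 641 for liver RNA and 0 to 96 for liver footprints. Over the same omissions the brain footprint log2 fold change of ENSRNOT00000026303 ran from 0.37 to 1.15. The log2 age change of the brain ratio of ENSRNOT00000004408 ran from -0.017, without old animal 3, to 0.25. In liver the log2 fold changes ran from 2.36 to 2.66 in RNA-seq and 2.11 to 2.58 in footprints for ENSRNOT00000004408, and from 2.12 to 2.84 and 3.26 to 3.79 for ENSRNOT00000026303. TMM factors over all libraries moved 12 of 24 levels and ratios by more than 1 SD. With a pseudocount of 1, 1 of the 2 transcripts most like ENSRNOT00000004408 stayed, and both of those most like ENSRNOT00000026303.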
